A study of Saccharomyces cerevisiae BY4741 with 12 samples.

Results

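The 184 genes described here are the outermost named ORFs of the 32 chromosome arms of budding yeast, Saccharomyces cerevisiae, out of 6632 annotated rows with a value. An ORF is an open reading frame, and its systematic name gives the chromosome, the arm and a number of 3 digits that grows away from the centromere. The rows with the 6 highest numbers of each arm were taken, and 8 ORFs named in the rule were left out, so that an arm held 4 to 6 members and 26 arms held 6. The choice used names only and no measured value.

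Polyadenylated RNA of 4 strains of the BY4741 background was sequenced by strand, in 3 libraries per strain and 12 in all. The strains were set2Δ, which lacks SET2 and carried the empty vector pRS415, set2-Y149F and set2-Y236F, which are the deletion strain with a mutant SET2 on pRS415, and the WT. Set2 is the histone methyltransferase of lysine 36 of histone H3. It adds up to 3 methyl groups there, and per the study the point mutants differ in which methylated state is missing: the trimethylated one in set2-Y236F, the dimethylated one, with part of the monomethylated one, in set2-Y149F. A strain carrying wild-type SET2 on pRS415 was not among the samples, so the plasmid and the point mutations cannot be told apart in a comparison with the WT. Cells were grown at 30 °C from an OD600 of 0.2 and collected at 0.8. The sources used here give the medium as YPD or SD without saying which strain had which, and do not say whether the WT carried a plasmid, so a difference in medium between the WT and the plasmid strains cannot be told apart from the mutations.

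Yeast chromosome ends carry arrays of a short repeat, and many carry the Y′ element, a longer repeat that holds ORFs for helicase-like proteins. The Sir proteins can silence genes placed near an end, which is known as the telomere position effect, and the subtelomeric regions are known for gene families for sugar use, cell-wall proteins, vitamin synthesis and metal uptake that are present in several near-identical copies. Set2 acts on transcribed genes, where lysine 36 methylation is known to recruit a histone deacetylase complex that restrains transcription from within the gene.

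The values were 1 mean FPKM per strain, which is fragments per kilobase of transcript scaled to the mapped fragments. As values of single libraries were not used here, no SD and no test can be given, the depth behind each value is unknown, and every difference below is a difference between 2 strain means with no replicate check. Differences are given as the mutant minus the WT on the scale of log2(FPKM + 1), and a gene was called higher or lower at a difference of 1 or more, or 2-fold on that scale, which understates the change of genes near or under 1 FPKM. All comparisons with the WT share the same WT mean. SET2 itself (YJL168C) was at 0.190 FPKM in set2Δ, 253 FPKM in set2-Y149F and 271 FPKM in set2-Y236F, against 29.1 FPKM in the WT, so that the 2 point mutants held far more SET2 RNA than the WT.

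The RefSeq annotation of the R64 genome, the sequence that sacCer3 also holds, listed 167 members and did not list the other 17. The start or end of the 167 nearest to the telomere lay 52 to 31566 bp from the end of the chromosome, with a median of 8558 bp, so the names picked genes next to the ends. Repeated sequence was common among the members. A protein at least 90% identical to that of another yeast gene over at least 80% of its length was found for 94 of them. The 17 that RefSeq does not list were not compared. Y′ element ORFs made up 34 members, on 17 arms. The sources used here do not say how reads that match several copies were shared out. Values of such copies are uncertain one by one.

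The members were low in every strain. Their median was 7.37 FPKM in set2Δ, 7.50 FPKM in set2-Y149F and 8.08 FPKM in set2-Y236F, against 7.43 FPKM in the WT, while the median of all annotated rows was 33.6 to 33.9 FPKM in the mutants and 35.9 FPKM in the WT. None of the 184 was at 0 in any strain, and 24 had a mean below 1 FPKM over the 4 strains. The next 6 numbers inward on each arm had medians of 20.9 FPKM in set2Δ, 19 FPKM in set2-Y149F and 20.3 FPKM in set2-Y236F, against 20.7 FPKM in the WT. Levels were thus higher further inward in the mutants as in the WT, with an exception at the very end. The first ORF of an arm, most often part of a Y′ element, had a median of 24.1 FPKM in set2Δ, 20.2 FPKM in set2-Y149F and 22.6 FPKM in set2-Y236F, against 21.6 FPKM in the WT. The second ORF had 3.75 FPKM in set2Δ, 3.39 FPKM in set2-Y149F and 4.82 FPKM in set2-Y236F, against 3.65 FPKM in the WT.

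**Figure D1:**
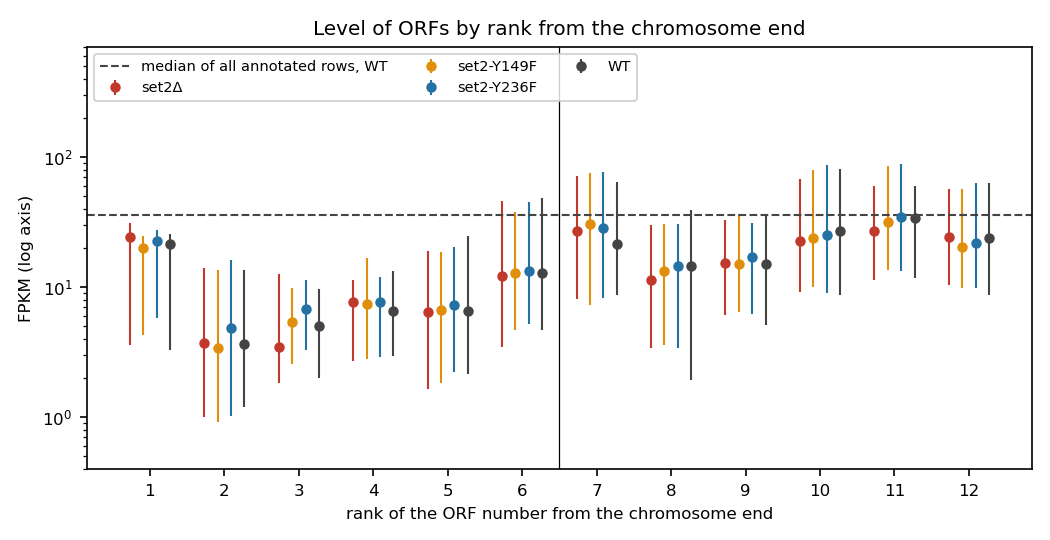
Median FPKM (points) with the lower and upper quartiles over arms (bars) for the ORFs ranked 1 to 12 from the chromosome end, on a log axis, in set2Δ, set2-Y149F, set2-Y236F and the WT. Ranks 1 to 6, left of the line, are the members; ranks 2 to 5 have the lowest medians in every strain, and the dashed line is the WT median of all annotated rows, 35.9 FPKM.

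By the mean over the 4 strains the most abundant members were MSC1, HYR1 and GTT1. MSC1 (YML128C, chrXIII:15135-16676, minus strand), which encodes a nuclear envelope protein linked to repair of DNA breaks, was at 654 FPKM in set2Δ, 725 FPKM in set2-Y149F and 566 FPKM in set2-Y236F, against 317 FPKM in the WT. HYR1, a thiol peroxidase, was at 397 FPKM in set2Δ, 429 FPKM in set2-Y149F and 536 FPKM in set2-Y236F, against 394 FPKM in the WT. GTT1, a glutathione S-transferase, was at 164 FPKM in set2Δ, 170 FPKM in set2-Y149F and 212 FPKM in set2-Y236F, against 154 FPKM in the WT. Of these 3 genes only MSC1 reached a 2-fold difference, by 1.04 in set2Δ and 1.19 in set2-Y149F, with 0.83 in set2-Y236F. Its upstream window is shown because it holds AGGGG, the core letters of the yeast stress response element, in 2 places. The window runs from 250 to 51 bases before the start codon, is written in the direction of the gene with matches on either strand in capitals, and comes from the RefSeq R64 genome at chrXIII:16727-16926.
MSC1 upstream: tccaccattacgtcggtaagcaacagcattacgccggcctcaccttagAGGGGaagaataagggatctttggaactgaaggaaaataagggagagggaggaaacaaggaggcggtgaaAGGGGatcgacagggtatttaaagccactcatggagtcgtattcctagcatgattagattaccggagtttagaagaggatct
The same letters stood in the windows of 13.4% of the 164 members with such a window and of 15.6% of 6020 protein-coding genes, so they were no more frequent at the chromosome ends.

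In set2Δ against the WT, 13 members were called higher and 12 lower, or 13.6% of the 184, where 4.07% of all annotated rows were called. The share was 7.07% higher and 6.52% lower, beside 2.88% and 1.19% of all rows. For 90 members no 90% identical protein was found, and 12 of them were called higher and 6 lower, or 20.0%. The even balance of directions was not kept there. These 90 include the 17 rows that RefSeq does not list, which were not compared. Those 17 hold 3 of the higher calls and 1 of the lower, and VBA5, a near-copy of VBA3, is also among the 90. A pseudocount of 10 in place of 1 takes weight from low genes. With it the share called was 1.63% of the members and 1.22% of all rows. At a pseudocount of 1 it was 8.33% of the 192 ORFs of the next 6 numbers inward, and none of the 192 ORFs with the 6 lowest numbers of each arm, next to the centromere, was called. The differences of the members were also more widely spread, with an interquartile range of 0.71 against 0.42 for all rows, while their median was near zero, at -0.03 against -0.07. After the strains were scaled to the same median over all rows, the median of the members was 0.05, on the other side of zero.

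Fewer members were called in the point mutants. In set2-Y149F 3 were called higher and 8 lower, or 5.98% where all rows gave 5.64% (3.57% higher and 2.07% lower). In set2-Y236F 6 were called higher and 8 lower, or 7.61% where all rows gave 5.34%, and 8 higher and 7 lower after scaling to the same median. The next 6 numbers inward gave 6.25% in set2-Y149F and 7.81% in set2-Y236F, close to the share of the members. The share called lower was above that of all rows in both, at 4.35% beside 2.07% in set2-Y149F and 4.35% beside 1.87% in set2-Y236F. The next 6 numbers inward gave 1.04% (set2-Y149F) and 0.521% (set2-Y236F). Related sequences were counted one by one among these lower calls. They are PAU6 and PAU18 in set2-Y149F, YAR066W and YHR214W in set2-Y236F, and IMD2, YAR073W and YAR075W in both. The lower calls are thus fewer independent observations than their number. The median difference was 0.06 (set2-Y149F) and 0.13 (set2-Y236F), beside -0.04 and -0.02 over all rows, and 127 of the 184 members, or 69.0%, were above the WT in set2-Y236F, beside 47.5% of all rows and 59.4% of the next 6 numbers inward. The members above the WT were 90 in set2Δ, or 48.9% beside 40.2% of all rows, and 102 in set2-Y149F, or 55.4% beside 46.0%. Near-copies were counted one by one here too. Of the 34 Y′ ORFs, 25 lay above the WT in set2Δ, 11 did in set2-Y149F and 30 did in set2-Y236F. The members above the WT are thus also fewer independent observations than their number.

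The share called differed with the level of the genes. Members with a mean of 5 to 20 FPKM held 16 of the 25 called in set2Δ, or 25% of 64, beside 6.08% of all rows in that range. For members of 1 to 5 FPKM the share was 8.70% of 46, below the 14.5% of all rows at that level. For those under 1 FPKM it was 12.5% of 24, beside 4.42%. For those of 20 FPKM or more it was 4.0% of 50, beside 2.12%.

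Across the 3 comparisons 32 members were called at least once and 152 never, and none was called in opposite directions. The same joint counts over all rows are not given here. As the 3 comparisons share the WT mean, calls in the same direction are favoured in any rows. The joint counts therefore only describe the members. Higher in at least 1 mutant were 17, and lower in at least 1 were 15. MAL33, PAU6, YAR066W and YAR075W were called lower in all 3 mutants, and no member was called higher in all 3. After scaling to the same median, MAL33 and YAR075W were no longer called in set2Δ, at -0.95 and -0.92, nor was YJL218W, at -0.92. IRC7 was no longer called in set2-Y149F, at -0.92, nor YAR068W in set2-Y236F, at -0.98. Newly called higher were PUG1 (YER185W) in set2Δ, at 1.02, and FLO9 in set2-Y149F, at 1.07. In set2-Y236F they were FRE2, at 1.01, and CSS1, at 1.02. With scaling CSS1 was thus called higher in all 3 mutants.

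**Figure D2:**
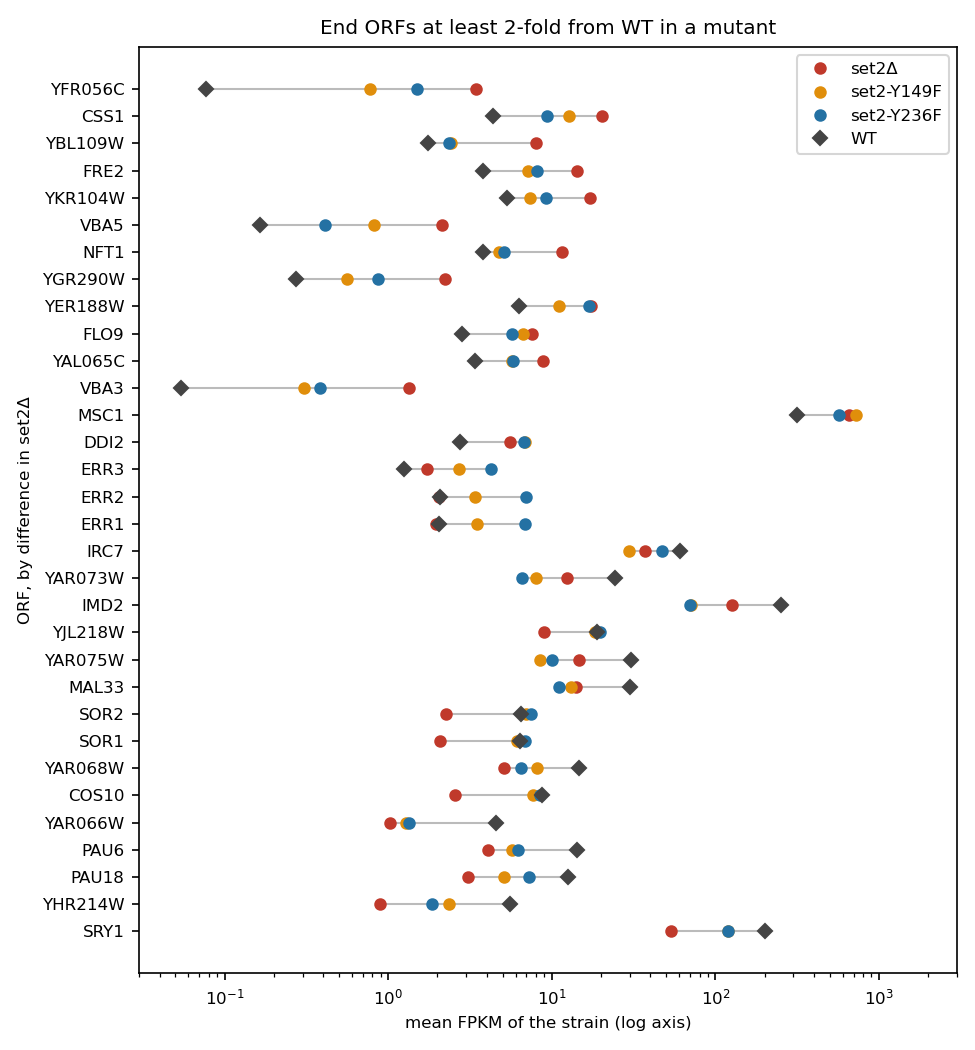
Mean FPKM of the 32 members called in at least 1 mutant, on a log axis, with circles for set2Δ, set2-Y149F and set2-Y236F and a diamond for the WT, ordered by the difference in set2Δ. From the top row down to ERR3 the WT has the lowest value, as for CSS1 at 4.39 FPKM, and in the rows from IRC7 down it has the highest or lies near it, as for SRY1 at 202 FPKM.

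The members called higher in set2Δ had various roles. CSS1 (YIL169C, chrIX:23119-26106, minus strand), a cell-wall glycoprotein held by a GPI anchor, was at 20.4 FPKM in set2Δ, 12.8 FPKM in set2-Y149F and 9.33 FPKM in set2-Y236F, against 4.39 FPKM in the WT. All 3 mutants lay above the WT, with differences of 1.99 (set2Δ), 1.36 (set2-Y149F) and 0.94 (set2-Y236F). FRE2 (YKL220C), a ferric and cupric reductase of the plasma membrane, was at 14.2 FPKM in set2Δ, 7.18 FPKM in set2-Y149F and 8.06 FPKM in set2-Y236F, against 3.79 FPKM in the WT, and its difference in set2Δ was 1.67. FLO9 (YAL063C), a lectin-like flocculin that lets cells stick together, was at 7.58 FPKM in set2Δ, 6.62 FPKM in set2-Y149F and 5.72 FPKM in set2-Y236F, against 2.82 FPKM in the WT. The nearby YAL065C, whose product resembles flocculins, was at 8.82 FPKM in set2Δ, 5.72 FPKM in set2-Y149F and 5.81 FPKM in set2-Y236F, against 3.4 FPKM in the WT. Both reached 2-fold in set2Δ, by 1.17 (FLO9) and 1.16 (YAL065C).

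On the right arm of chromosome XI neighbouring transport genes were higher together in set2Δ, and the arm had the highest median difference of all arms there, 1.38 over its 5 members. NFT1 (YKR103W, chrXI:653080-656736, plus strand) and YKR104W (chrXI:656836-657756, plus strand) encode parts of an ABC transporter of the MRP type that are fused to 1 ORF in other yeast strains. NFT1 was at 11.5 FPKM in set2Δ, 4.76 FPKM in set2-Y149F and 5.13 FPKM in set2-Y236F, against 3.81 FPKM in the WT. YKR104W was at 17.2 FPKM in set2Δ, 7.39 FPKM in set2-Y149F and 9.27 FPKM in set2-Y236F, against 5.32 FPKM in the WT. The next gene, VBA5 (YKR105C), a plasma membrane protein of the major facilitator family, was at 2.14 FPKM in set2Δ, 0.817 FPKM in set2-Y149F and 0.412 FPKM in set2-Y236F, against 0.164 FPKM in the WT. Their differences in set2Δ were 1.38 (NFT1), 1.53 (YKR104W) and 1.43 (VBA5), and those in the point mutants were all below 1. The outermost ORF of the arm, GEX2, a glutathione exchanger, was not called, at 2.17 FPKM in set2Δ, 4.12 FPKM in set2-Y149F and 6.71 FPKM in set2-Y236F, against 3.22 FPKM in the WT.

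VBA3 (YCL069W), a permease for basic amino acids on the left arm of chromosome III whose coding sequence is 99.3% identical to VBA5 over the aligned part, was at 1.34 FPKM in set2Δ, 0.306 FPKM in set2-Y149F and 0.382 FPKM in set2-Y236F, against 0.0544 FPKM in the WT. Its difference in set2Δ was 1.15, the ratio to a WT value this low is poorly defined, and the reads of the VBA3 and VBA5 copies cannot be told apart from these values. Further rows that were higher in set2Δ had no standard name. YER188W was at 17.3 FPKM in set2Δ, 11.1 FPKM in set2-Y149F and 16.8 FPKM in set2-Y236F, against 6.26 FPKM in the WT, and was called in set2Δ and set2-Y236F. YBL109W was at 7.98 FPKM in set2Δ, 2.42 FPKM in set2-Y149F and 2.34 FPKM in set2-Y236F, against 1.76 FPKM in the WT. YFR056C was at 3.46 FPKM in set2Δ, 0.771 FPKM in set2-Y149F and 1.5 FPKM in set2-Y236F, against 0.0769 FPKM in the WT. YGR290W was at 2.23 FPKM in set2Δ, 0.559 FPKM in set2-Y149F and 0.864 FPKM in set2-Y236F, against 0.273 FPKM in the WT. These last 3 are among the 17 rows that RefSeq does not list. In that group of 17 the WT median was 0.83 FPKM and 12 lay above the WT in set2Δ, with a median difference of 0.44.

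The enolase-related genes were called higher in set2-Y236F. ERR1 (YOR393W) was at 1.96 FPKM in set2Δ, 3.47 FPKM in set2-Y149F and 6.84 FPKM in set2-Y236F, against 2.05 FPKM in the WT. ERR2 (YPL281C) was at 2.04 FPKM in set2Δ, 3.4 FPKM in set2-Y149F and 6.96 FPKM in set2-Y236F, against 2.06 FPKM in the WT. ERR3 (YMR323W) was at 1.73 FPKM in set2Δ, 2.72 FPKM in set2-Y149F and 4.27 FPKM in set2-Y236F, against 1.25 FPKM in the WT. The ERR genes lie on chromosomes XV, XVI and XIII. The coding sequences of ERR1 and ERR2 are identical over 1314 bp, and ERR3 differs from them at 12 positions, so they give close to 1 measurement rather than 3. The differences from the WT were -0.04 (ERR1) and -0.01 (ERR2) in set2Δ, and 1.36 (ERR1) and 1.38 (ERR2) in set2-Y236F. Set against set2-Y236F, set2Δ differed by -1.40 (ERR1) and -1.39 (ERR2).

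YNL335W, named DDI2 in RefSeq with DDI3 as a synonym, encodes a cyanamide hydratase known to be induced by DNA damage. It was at 5.53 FPKM in set2Δ, 6.89 FPKM in set2-Y149F and 6.74 FPKM in set2-Y236F, against 2.74 FPKM in the WT, with differences of 0.80 (set2Δ), 1.07 (set2-Y149F) and 1.05 (set2-Y236F). Its coding sequence is 99.9% identical to that of YFL061W, which is not a member.

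Of the lower members, 4 lie on the right arm of chromosome I, which had the lowest median of all arms in all 3 mutants, at -0.96 (set2Δ), -1.02 (set2-Y149F) and -1.16 (set2-Y236F). YAR075W was at 14.6 FPKM in set2Δ, 8.51 FPKM in set2-Y149F and 10.0 FPKM in set2-Y236F, against 30.3 FPKM in the WT. YAR073W was at 12.4 FPKM in set2Δ, 8.01 FPKM in set2-Y149F and 6.61 FPKM in set2-Y236F, against 24.3 FPKM in the WT. YAR068W was at 5.09 FPKM in set2Δ, 8.17 FPKM in set2-Y149F and 6.44 FPKM in set2-Y236F, against 14.6 FPKM in the WT. YAR066W, a predicted GPI-anchored protein (chrI:221049-221660, plus strand), was at 1.02 FPKM in set2Δ, 1.29 FPKM in set2-Y149F and 1.34 FPKM in set2-Y236F, against 4.54 FPKM in the WT. Each of these was at its highest in the WT, and the acid phosphatase gene PHO11 between them was not, at 5.19 FPKM in set2Δ, 6.54 FPKM in set2-Y149F and 8.10 FPKM in set2-Y236F, against 6.28 FPKM in the WT.

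The same genes have relatives on the right arm of chromosome VIII. YHR214W, the near-copy of YAR066W, was at 0.894 FPKM in set2Δ, 2.36 FPKM in set2-Y149F and 1.85 FPKM in set2-Y236F, against 5.54 FPKM in the WT, with differences of -1.79 (set2Δ), -0.96 (set2-Y149F) and -1.20 (set2-Y236F). The coding sequences of YAR066W and YHR214W differ at 1 of 612 positions, and the stretch around it is shown because only reads across that base tell the pair apart within the coding sequence. It is in capitals, and the stretches lie at chrI:221393-221453 and chrVIII:541995-542055 in RefSeq R64, plus strand.
YAR066W: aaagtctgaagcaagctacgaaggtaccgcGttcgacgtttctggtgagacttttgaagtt
YHR214W: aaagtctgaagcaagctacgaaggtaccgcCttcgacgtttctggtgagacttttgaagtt

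IMD2 (YHR216W, chrVIII:554396-555967, plus strand), an IMP dehydrogenase of guanine nucleotide synthesis, was at 127 FPKM in set2Δ, 71.2 FPKM in set2-Y149F and 69.7 FPKM in set2-Y236F, against 252 FPKM in the WT. Its differences were -1.81 (set2-Y149F) and -1.84 (set2-Y236F), and its difference in set2Δ was -0.98, just short of the threshold. On chromosome I the coding sequence of IMD2 had a match of 1576 bp at 96.3% identity, at chrI:227742-229317, and RefSeq's note on IMD2 names YAR073W and YAR075W as its paralog from a segmental duplication. The first 110 coding bases of IMD2 (chrVIII:554396-554505) and of the match (chrI:227742-227851) are shown because YAR073W and YAR075W were called lower in the point mutants as IMD2 was. Both are plus strand, with the bases that differ in capitals.
IMD2: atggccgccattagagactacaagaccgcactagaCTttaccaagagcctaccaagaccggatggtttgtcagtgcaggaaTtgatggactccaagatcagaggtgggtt
Match on chromosome I: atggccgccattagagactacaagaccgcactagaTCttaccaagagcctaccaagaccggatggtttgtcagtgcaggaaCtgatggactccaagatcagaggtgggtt
The point mutants lay below set2Δ for IMD2, YAR073W and YAR075W alike. Whether reads of IMD2 were counted at YAR073W and YAR075W was not tested.

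**Figure D3:**
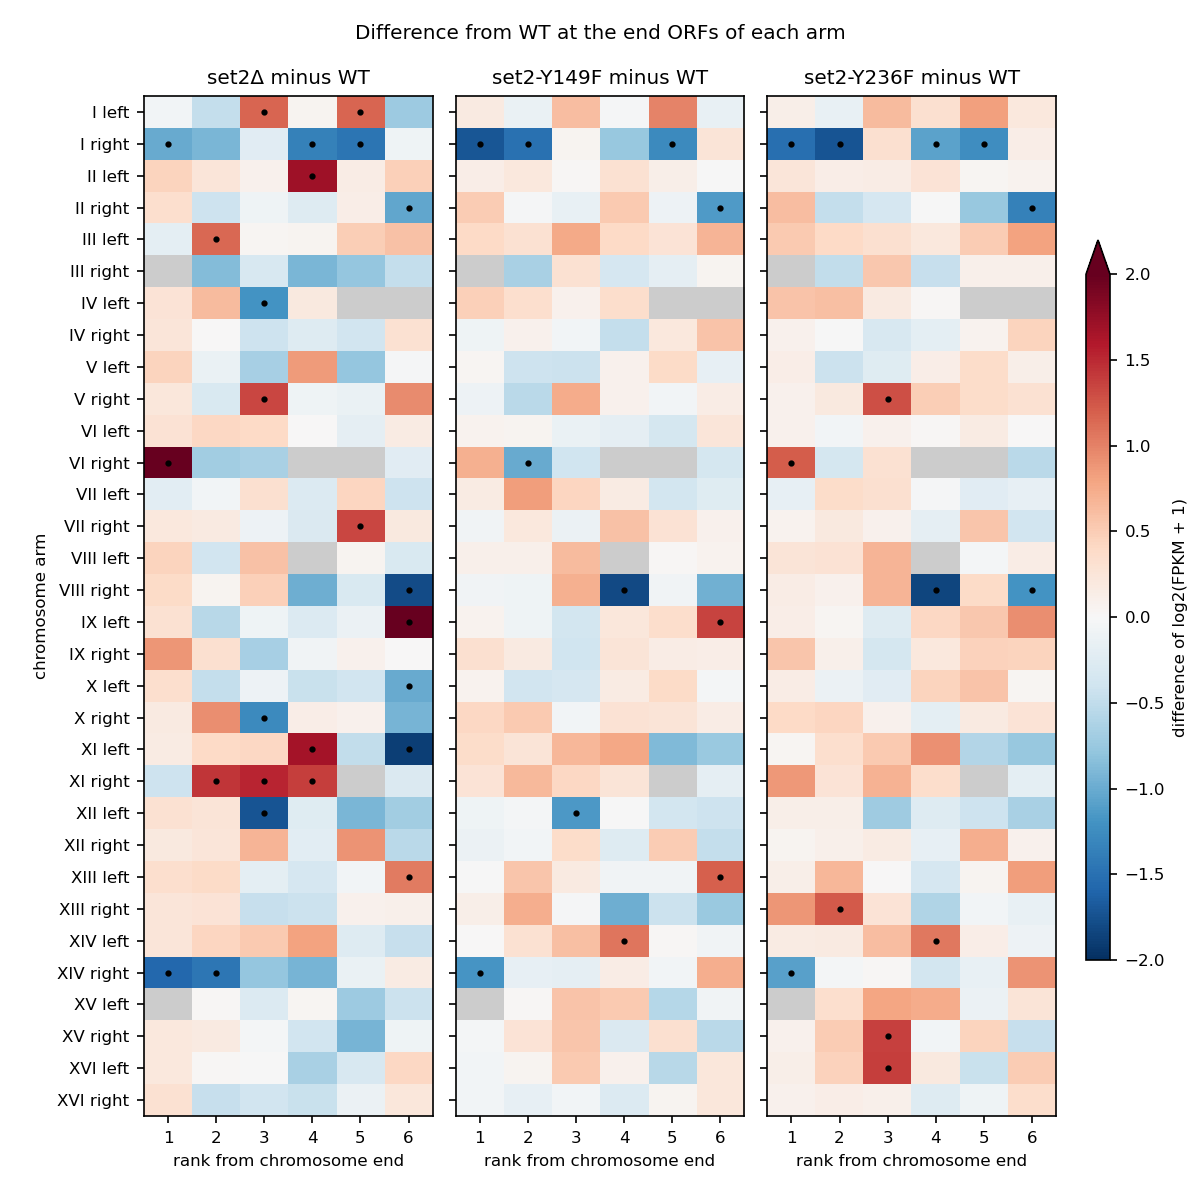
Difference of log2(FPKM + 1) from the WT for each member, by chromosome arm (rows) and rank of the ORF from the chromosome end (columns), in set2Δ, set2-Y149F and set2-Y236F; red is higher than the WT, blue lower, grey has no member, and a dot marks a difference of at least 1 in either direction. The blue cells of the right arm of chromosome I appear in all 3 mutants, and the red cells of the right arm of chromosome XI reach 2-fold in set2Δ only.

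Further members passed the threshold in set2Δ alone. SOR1 (YJR159W) and SOR2 (YDL246C), sorbitol dehydrogenases on chromosomes X and IV, had nearly the same values. SOR1 was at 2.06 FPKM in set2Δ, 6.10 FPKM in set2-Y149F and 6.81 FPKM in set2-Y236F, against 6.38 FPKM in the WT. SOR2 was at 2.26 FPKM in set2Δ, 6.91 FPKM in set2-Y149F and 7.50 FPKM in set2-Y236F, against 6.49 FPKM in the WT. The point mutants lay within 0.18 of the WT, while the differences of set2Δ were -1.27 (SOR1) and -1.20 (SOR2). The genes differ at 1 of 1074 coding positions, in capitals in the stretches below, which are written in the direction of the genes and lie at chrX:736337-736397 on the plus strand and chrIV:9403-9463 on the minus strand of RefSeq R64. The values of the pair are not independent.
SOR1: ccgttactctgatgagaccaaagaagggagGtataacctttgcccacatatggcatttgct
SOR2: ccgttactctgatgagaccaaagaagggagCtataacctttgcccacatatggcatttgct

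COS10 (YNR075W), a member of the COS family of endosomal membrane proteins, was at 2.57 FPKM in set2Δ, 7.68 FPKM in set2-Y149F and 8.47 FPKM in set2-Y236F, against 8.68 FPKM in the WT. YJL218W, a putative acetyltransferase, was at 9.0 FPKM in set2Δ, 18.4 FPKM in set2-Y149F and 19.6 FPKM in set2-Y236F, against 19 FPKM in the WT. In both genes set2Δ stood apart from the 3 other strains, with differences of -1.44 (COS10) and -1.0 (YJL218W). IRC7 (YFR055W), a cysteine desulphydrase, was at 37.0 FPKM in set2Δ, 29.8 FPKM in set2-Y149F and 47.1 FPKM in set2-Y236F, against 60.7 FPKM in the WT, and was called in set2-Y149F only, at -1.0.

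MAL33 (YBR297W, chrII:800523-801929, plus strand), an activator of the maltose genes, was at 14.1 FPKM in set2Δ, 13.1 FPKM in set2-Y149F and 11.1 FPKM in set2-Y236F, against 29.9 FPKM in the WT. All mutants were below the WT, with differences of -1.04 (set2Δ), -1.13 (set2-Y149F) and -1.35 (set2-Y236F). The maltose genes beside it on the right arm of chromosome II were not called. MAL32, a maltase, was at 9.84 FPKM in set2Δ, 17.6 FPKM in set2-Y149F and 11.9 FPKM in set2-Y236F, against 12 FPKM in the WT. MAL31, a maltose permease, was at 57.9 FPKM in set2Δ, 49.1 FPKM in set2-Y149F and 31 FPKM in set2-Y236F, against 53.0 FPKM in the WT. The maltose permease genes MPH2 and MPH3 were at 3.10 and 4.33 FPKM in set2Δ, against 1.65 and 1.81 in the WT, differences of 0.63 and 0.92 that did not reach 2-fold. Of the 9 members of the MAL, IMA and MPH group, 4 lay above the WT in set2Δ, 7 did in set2-Y149F and 4 did in set2-Y236F.

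The seripauperins (PAU), small cell-wall proteins known to be induced when oxygen is low, numbered 17, each with a near-identical copy elsewhere. Their WT levels ran from 0.138 to 14.2 FPKM, with a median of 1.38. PAU6 and PAU18, the most abundant of them in the WT, were also the members that were called. PAU6 (YNR076W, chrXIV:781918-782280, plus strand) was at 4.09 FPKM in set2Δ, 5.72 FPKM in set2-Y149F and 6.17 FPKM in set2-Y236F, against 14.2 FPKM in the WT. PAU18 (YLL064C, chrXII:13083-13445, minus strand) stood at 3.08 FPKM in set2Δ, 5.10 FPKM in set2-Y149F and 7.24 FPKM in set2-Y236F, against 12.5 FPKM in the WT. The differences of PAU6 were -1.58 (set2Δ), -1.18 (set2-Y149F) and -1.08 (set2-Y236F), and those of PAU18 were -1.72 (set2Δ), -1.14 (set2-Y149F) and -0.71 (set2-Y236F). PAU3 was at 1.53 FPKM in set2Δ, 2.76 FPKM in set2-Y149F and 2.46 FPKM in set2-Y236F, against 3.76 FPKM in the WT. PAU20 was at 0.214 FPKM in set2Δ, 0.360 FPKM in set2-Y149F and 0.845 FPKM in set2-Y236F, against 1.01 FPKM in the WT. The differences in set2Δ were -0.91 (PAU3) and -0.73 (PAU20). Of all 17, 11 lay below the WT in set2Δ, 10 did in set2-Y149F and 9 did in set2-Y236F, with medians of -0.41 (set2Δ), -0.05 (set2-Y149F) and -0.04 (set2-Y236F).

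PAU6 and PAU18 have the same 363 coding bases, while PAU8, at 0.359 FPKM in set2Δ, 0.608 FPKM in set2-Y149F and 0.535 FPKM in set2-Y236F, against 0.412 FPKM in the WT, differs from them at 14. The first 110 coding bases are shown, in the direction of each gene, because they let a reader see how little sequence separates the called pair from a copy at a low level. Capitals mark the positions where the 3 differ, and the stretches lie at chrXIV:781918-782027, chrXII:13336-13445 and chrI:2060-2169 in RefSeq R64.
PAU6: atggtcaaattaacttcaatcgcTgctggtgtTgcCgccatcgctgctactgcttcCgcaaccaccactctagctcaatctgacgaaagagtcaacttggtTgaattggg
PAU18: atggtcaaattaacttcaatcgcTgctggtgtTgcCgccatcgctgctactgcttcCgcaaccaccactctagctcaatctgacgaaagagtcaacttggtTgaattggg
PAU8: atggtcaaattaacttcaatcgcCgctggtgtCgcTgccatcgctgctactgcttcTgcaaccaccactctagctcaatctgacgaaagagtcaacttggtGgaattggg

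The upstream windows of PAU6 and PAU18, from 250 to 51 bases before the start codon, were also nearly the same, with 8 differences in 200 bases. They are shown with TATAAA, the letters of a common TATA box, in capitals where they occur on either strand (chrXIV:781668-781867, plus strand, and chrXII:13496-13695, minus strand, both RefSeq R64).
PAU6 upstream: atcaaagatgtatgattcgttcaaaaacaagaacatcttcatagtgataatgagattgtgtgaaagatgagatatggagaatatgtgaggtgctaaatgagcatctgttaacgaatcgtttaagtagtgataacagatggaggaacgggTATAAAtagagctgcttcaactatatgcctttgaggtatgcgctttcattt
PAU18 upstream: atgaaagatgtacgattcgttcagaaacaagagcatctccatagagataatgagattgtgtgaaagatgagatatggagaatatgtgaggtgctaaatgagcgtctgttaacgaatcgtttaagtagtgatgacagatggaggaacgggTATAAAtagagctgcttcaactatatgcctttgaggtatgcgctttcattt
TATAAA stood in this window for 53.7% of the 164 members and 38.0% of 6020 protein-coding genes. It stood there for 10 of the 13 members called lower in any mutant that have such a window and for 3 of the 14 called higher. The pairs PAU6 and PAU18, SOR1 and SOR2, and YAR066W and YHR214W are near-copies in this count, and a match of these letters is not evidence of a site in use.

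The COS family had 10 members, among them COS10, and most others lay above the WT. COS8 was at 68.8 FPKM in set2Δ, 70.6 FPKM in set2-Y149F and 73.4 FPKM in set2-Y236F, against 45.3 FPKM in the WT. COS1 was at 66.9 FPKM in set2Δ, 70.3 FPKM in set2-Y149F and 71.4 FPKM in set2-Y236F, against 46.2 FPKM in the WT. Their differences ran from 0.53 to 0.68 in the mutants. COS12, at 2.57 FPKM in set2Δ, 3.65 FPKM in set2-Y149F and 2.69 FPKM in set2-Y236F, against 3.15 FPKM in the WT, and COS9, described below with its antisense transcript, stood on the other side of the WT in set2Δ. In set2Δ 7 of the 10 lay above the WT, as did 8 (set2-Y149F) and 7 (set2-Y236F) in the point mutants, with medians of 0.23 (set2Δ), 0.45 (set2-Y149F) and 0.49 (set2-Y236F), and COS10 in set2Δ was the only call.

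The 34 Y′ element ORFs gave no call in any mutant. The 11 of at least 4000 bp, which include the 8 YRF1 helicase genes, had levels close to each other. Their levels ran from 22.6 to 32.9 FPKM in set2Δ, 19 to 26.4 in set2-Y149F and 20.1 to 29.7 in set2-Y236F, against 18.1 to 27.6 in the WT. All 11 lay above the WT in set2Δ, by 0.19 to 0.33, and in set2-Y236F, by 0.06 to 0.16. In set2-Y149F 3 of the 11 lay above the WT as deposited and 8 after scaling to the same median, with differences of -0.12 to 0.07 as deposited, so no direction is given there. YRF1-1, for example, was at 27.5 FPKM in set2Δ, 21.6 FPKM in set2-Y149F and 24.6 FPKM in set2-Y236F, against 23.0 FPKM in the WT. As the copies are up to 100% identical, their equal behaviour is close to 1 observation made 11 times. The 23 shorter Y′ ORFs were less even, with 14 above the WT in set2Δ and a lowest difference of -0.67, that of YEL075C at 2.68 FPKM in set2Δ, 3.36 FPKM in set2-Y149F and 3.96 FPKM in set2-Y236F, against 4.86 FPKM in the WT. The largest was 0.45, that of YEL077C at 30.4 FPKM in set2Δ, 22.6 FPKM in set2-Y149F and 24.2 FPKM in set2-Y236F, against 22 FPKM in the WT.

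The 4 genes named THI, SNZ or SNO lay below the WT in set2Δ, with a median of -0.46 and no call. THI11, SNO2 and SNZ2 act in the synthesis of thiamine or pyridoxine, while SNO4, grouped here by its name alone, is of the chaperone-related family of HSP33, to which its coding sequence is 98.9% identical. THI11 was at 2.16 FPKM in set2Δ, 5.68 FPKM in set2-Y149F and 6.28 FPKM in set2-Y236F, against 5.04 FPKM in the WT. SNZ2 was at 12.3 FPKM in set2Δ, 16.4 FPKM in set2-Y149F and 16.2 FPKM in set2-Y236F, against 17.3 FPKM in the WT. SNO4 was at 0.946 FPKM in set2Δ, 1.63 FPKM in set2-Y149F and 2.23 FPKM in set2-Y236F, against 1.68 FPKM in the WT. SNO2 was at 15.2 FPKM in set2Δ, 18.7 FPKM in set2-Y149F and 20.2 FPKM in set2-Y236F, against 18.3 FPKM in the WT. In the point mutants the medians of the group were 0.00 (set2-Y149F) and 0.20 (set2-Y236F).

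None of the hexose transporter and arsenic genes was called. The 5 HXT genes had WT levels of 0.282 to 1.31 FPKM. HXT9, the one with the largest difference in set2Δ, was at 0.780 FPKM in set2Δ, 2.02 FPKM in set2-Y149F and 2.44 FPKM in set2-Y236F, against 1.31 FPKM in the WT. ARR3, an arsenite exporter, was at 2.31 FPKM in set2Δ, 2.70 FPKM in set2-Y149F and 2.78 FPKM in set2-Y236F, against 3.49 FPKM in the WT. ARR1, the regulator of the ARR genes, was at 61.6 FPKM in set2Δ, 62.1 FPKM in set2-Y149F and 67.5 FPKM in set2-Y236F, against 52.8 FPKM in the WT. ADH7, an alcohol dehydrogenase listed with SOR1 and SOR2, was at 1.34 FPKM in set2Δ, 2.60 FPKM in set2-Y149F and 3.21 FPKM in set2-Y236F, against 1.91 FPKM in the WT.

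**Figure D4:**
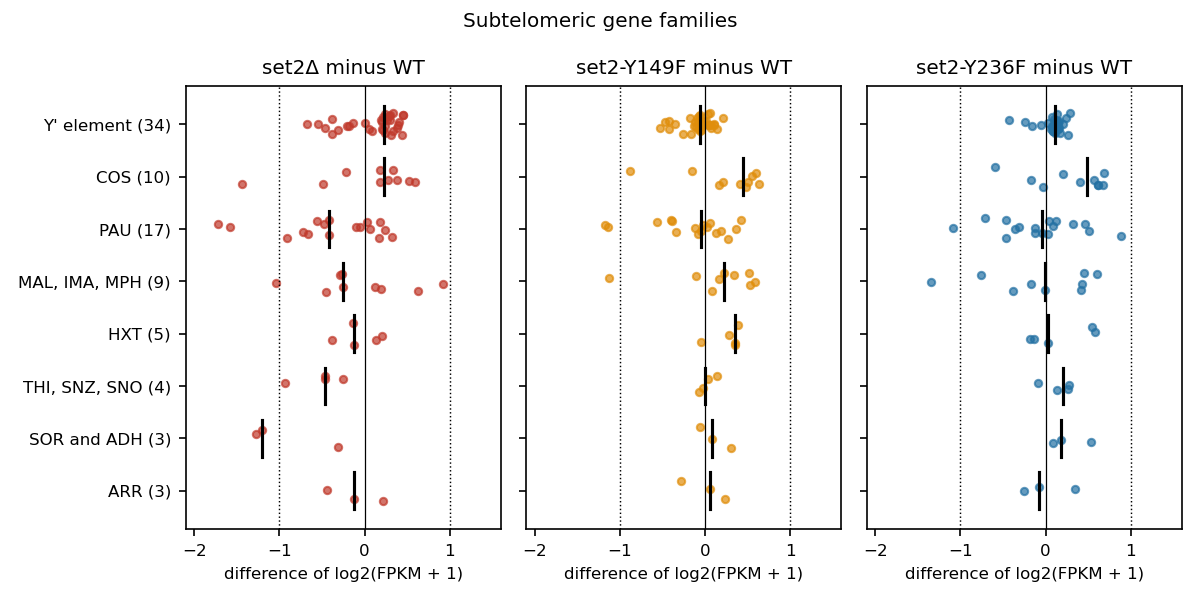
Difference of log2(FPKM + 1) from the WT for each member of the families of 3 or more (number in brackets), in set2Δ, set2-Y149F and set2-Y236F. Points are genes, spread vertically for sight only, black bars are medians and dotted lines mark 2-fold; the 34 Y′ ORFs all lie between the dotted lines, while COS10, PAU6, PAU18, SOR1, SOR2 and MAL33 pass the lower one in set2Δ.

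Distance to the chromosome end was compared with the difference from the WT. Over the 167 members with a position, Spearman's rho of distance to the chromosome end with the difference was -0.26 (set2Δ), 0.01 (set2-Y149F) and -0.02 (set2-Y236F), a description across genes that share libraries and, in part, sequence. Without the Y′ ORFs, a choice made after these values were seen, rho over 133 members was -0.09 (set2Δ), -0.11 (set2-Y149F) and -0.07 (set2-Y236F). The 46 members within 5 kb of an end, of which 28 are Y′ ORFs, had a median difference of 0.22 in set2Δ, with none called higher and 2 called lower. The 54 at 5 to 10 kb had a median of -0.09 with 5 higher and 4 lower. The 43 at 10 to 15 kb had a median of -0.20 with 2 higher and 2 lower, and the 24 beyond 15 kb a median of -0.18 with 3 higher and 3 lower. Over all rows 2.88% were called higher and 1.19% lower in set2Δ. Calls in set2Δ were spread over 18 of the 32 arms.

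Members were also called in set2Δ against both point mutants. Against set2-Y149F 5 members were higher and 8 lower in set2Δ, or 7.07% where all rows gave 2.83%. Against set2-Y236F 4 were higher and 13 lower, or 9.24% where all rows gave 2.99%. The next 6 numbers inward gave 6.77% in both comparisons. With a pseudocount of 10 the shares were 1.09% of the members and 0.829% of all rows against set2-Y149F, and 0.543% of the members and 0.769% of all rows against set2-Y236F, so that the excess over all rows against set2-Y236F was lost. YBL109W and NFT1 were higher than in both point mutants, by 1.39 (YBL109W) and 1.12 (NFT1) against set2-Y149F and by 1.42 (YBL109W) and 1.03 (NFT1) against set2-Y236F. Lower than in both were SOR1, SOR2, COS10, SRY1, THI11, HSP33 and YEL073C. HSP33, a relative of a stress-induced chaperone, was at 0.657 FPKM in set2Δ, against 2.93 FPKM in set2-Y149F and 3.27 FPKM in set2-Y236F, with 2.14 FPKM in the WT. YEL073C was at 39.2 FPKM in set2Δ, against 88.9 FPKM in set2-Y149F and 88.3 FPKM in set2-Y236F, with 68.1 FPKM in the WT. Between set2-Y149F and set2-Y236F none of the 184 was called, where all rows gave 0.618% (0.302% higher and 0.317% lower), and the widest gap was that of ERR2, at -0.86.

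Antisense transcripts are read from the opposite strand of a gene. The authors' set2Δ list holds them for 5 members, or 2.72%, beside 10.4% of all annotated rows. The share was 9.90% of the next 6 numbers inward and 16.7% of the 6 lowest numbers of each arm. This list holds transcripts that were higher in set2Δ than in the WT. Each was thus chosen for a high value in set2Δ, which also favours set2Δ over the point mutants, and its values are a description. Transcripts higher only in a point mutant are not in these shares. The members were not much shorter than other genes, with a median of 1125 bp beside 1206. Among genes under 1 kb the share was 1.37% of 73 members and 1.79% of 2341 rows, close to each other. Among genes of 1 to 2 kb it was 2.99% of 67 members and 12.8% of 2230 rows, and among longer genes 7.41% of 27 and 26.7% of 1333.

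SRY1 (YKL218C, chrXI:17359-18339, minus strand), which encodes a 3-hydroxyaspartate dehydratase, had the largest lower difference of all members in set2Δ. Its sense RNA was at 53.9 FPKM in set2Δ, 120 FPKM in set2-Y149F and 119 FPKM in set2-Y236F, against 202 FPKM in the WT, with differences of -1.88 (set2Δ), -0.74 (set2-Y149F) and -0.76 (set2-Y236F). The antisense transcript (chrXI:17659-18490, plus strand, 832 bp) covered 69.4% of the gene and was at 9.52 FPKM in set2Δ, 10.5 FPKM in set2-Y149F and 9.04 FPKM in set2-Y236F, against 2.61 FPKM in the WT. Its level was thus alike in the 3 mutants, while the sense level of set2Δ was below that of either point mutant. The gene and the transcript overlap on opposite strands, and the sources used here do not say whether the FPKM of annotated rows counted reads by strand.

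COS9 (YKL219W), the neighbour of SRY1, was at 17.3 FPKM in set2Δ, 13 FPKM in set2-Y149F and 16.1 FPKM in set2-Y236F, against 24.7 FPKM in the WT. Its antisense transcript was at 3.24 FPKM in set2Δ, 3.88 FPKM in set2-Y149F and 2.74 FPKM in set2-Y236F, against 1.05 FPKM in the WT. MNT2 (YGL257C), a mannosyltransferase, was at 35.5 FPKM in set2Δ, 40.4 FPKM in set2-Y149F and 42.8 FPKM in set2-Y236F, against 47.8 FPKM in the WT. Its antisense transcript was at 6.54 FPKM in set2Δ, 2.37 FPKM in set2-Y149F and 2.16 FPKM in set2-Y236F, against 1.69 FPKM in the WT. In both genes the sense level was highest in the WT, with no call.

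VTH1 (YIL173W) and VTH2 (YJL222W), on the left arms of chromosomes IX and X, encode membrane proteins like the vacuolar sorting receptor Vps10. Sense RNA of VTH1 was at 12.9 FPKM in set2Δ, 10.4 FPKM in set2-Y149F and 11.3 FPKM in set2-Y236F, against 13.8 FPKM in the WT. That of VTH2 was at 12.5 FPKM in set2Δ, 10.5 FPKM in set2-Y149F and 11.3 FPKM in set2-Y236F, against 13.5 FPKM in the WT. Antisense RNA of VTH1 was at 7.55 FPKM in set2Δ, 1.12 FPKM in set2-Y149F and 1.08 FPKM in set2-Y236F, against 0.401 FPKM in the WT. That of VTH2 was at 3.94 FPKM in set2Δ, 0.490 FPKM in set2-Y149F and 0.421 FPKM in set2-Y236F, against 0.0999 FPKM in the WT. The antisense level of set2Δ stood far above that of the other strains, in transcripts listed for being higher in set2Δ than in the WT. The sense level lay within 0.11 of the WT in set2Δ. The coding sequences differ at 1 of 4650 positions, in capitals in the stretches below (chrIX:16008-16068 and chrX:15991-16051, plus strand, RefSeq R64), so the sense and antisense values of the pair are not independent.
VTH1: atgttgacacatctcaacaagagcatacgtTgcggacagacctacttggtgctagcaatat
VTH2: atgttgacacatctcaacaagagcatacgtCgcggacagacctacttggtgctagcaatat

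**Figure D5:**
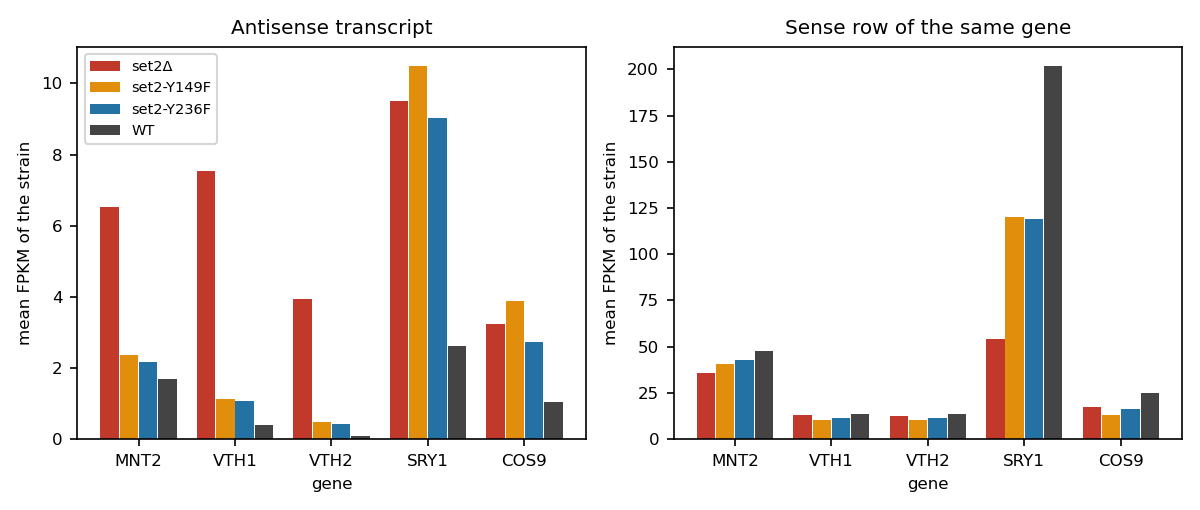
Mean FPKM of the antisense transcript (left) and of the sense row (right) of the 5 members with a listed antisense transcript, in set2Δ, set2-Y149F, set2-Y236F and the WT, with 1 bar per strain mean. Antisense bars are higher in every mutant than in the WT, set2Δ exceeds both point mutants at MNT2, VTH1 and VTH2, and the sense bar of SRY1 is highest in the WT, at 202 FPKM. The transcripts come from a list of those higher in set2Δ than in the WT.

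Genes known for silencing at chromosome ends were looked at as a list of 32, of which 31 were found. None was called in any mutant, where all rows gave 4.07% (set2Δ), 5.64% (set2-Y149F) and 5.34% (set2-Y236F), shares at which a list of this size holds few calls. Their median differences were -0.13 (set2Δ), -0.17 (set2-Y149F) and -0.28 (set2-Y236F), beside -0.07, -0.04 and -0.02 over all rows. SIR2, the histone deacetylase of the silencing complex, was at 15.2 FPKM in set2Δ, 14.1 FPKM in set2-Y149F and 12.5 FPKM in set2-Y236F, against 17.3 FPKM in the WT. SIR3 was at 19.4 FPKM in set2Δ, 18.5 FPKM in set2-Y149F and 16.5 FPKM in set2-Y236F, against 21.3 FPKM in the WT. SIR4 was at 21.8 FPKM in set2Δ, 16.0 FPKM in set2-Y149F and 14.5 FPKM in set2-Y236F, against 17.2 FPKM in the WT. SIR1 (YKR101W), which is also a member, was at 9.15 FPKM in set2Δ, 9.94 FPKM in set2-Y149F and 9.73 FPKM in set2-Y236F, against 11.3 FPKM in the WT. HMLALPHA2, a gene of the silent mating-type cassette on the left arm of chromosome III, was at 28.7 FPKM in set2Δ, 36.6 FPKM in set2-Y149F and 31.9 FPKM in set2-Y236F, against 27.5 FPKM in the WT. In the RefSeq genome its coding sequence is 100% identical to that of YCR039C. Whether these strains hold both copies was not looked at, so its value is uncertain.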

How the data were processed

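The authors sequenced strand-specific libraries of polyadenylated RNA. Their processing notes list the sacCer3 build with HTSeq 0.13.5, Cuffdiff, Cufflinks 2.2.1, TopHat2 2.1.1, Trimmomatic 0.38, bedtools 2.29.2 and SAMtools 1.10. The deposited table used here gives 1 mean FPKM per strain for 6632 annotated rows and 777 antisense transcripts. Which program gave the FPKM of annotated rows is unstated in the sources used here. A further deposited table gives a mean scaled count (a coverage-like signal), and the authors' antisense lists give a log2 CPM, positions, widths, a strand, which is text of another kind, and the sense gene. These served only to check names and place transcripts. The log2 fold changes, p-values and adjusted p-values deposited by the authors were not used.

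In the antisense rows the names followed the set2Δ list and the values the alphabet: FPKM times width had r = -0.00184 with the log2 CPM as printed and 0.904 in alphabetical order, which was used. Annotated rows gave r = 0.9997 over 5904 genes.

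Members were chosen by name only, and members and lists were chosen with earlier results of these data known. Differences were taken of log2(FPKM + 1), and 2-fold was the threshold. With 1 mean per strain the planned fit across libraries could not be run, and depth is unknown. Genes named were the up to 10 largest called differences in each direction and mutant, members with a listed antisense transcript, the 3 most abundant, up to 4 of each family of 3 or more, and SET2. Others were chosen after their values were seen. Identity came from BLAST 2.17.0 and base by base comparison of RefSeq R64 sequences. Python 3.11.15, pandas 2.3.3 and NumPy 2.4.6 were used. The 2-fold call was tested on simulated data with large changes and little noise in genes that were not low. The ranking of ORF numbers was checked on a small made-up example. Low genes and the other steps were not tested in this way.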

Additional observations from a re-analysis of the deposited data

How the results depend on the processing

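No paired analysis was possible because the table holds 1 mean per strain, and for the same reason no replicate could be left out. The pseudocount had the largest effect on the percent of members called. With 0.1 in place of 1 it was 21.2 (set2Δ), 12.5 (set2-Y149F) and 13.6 (set2-Y236F) against the WT (all rows 8.01, 8.88 and 8.75). In set2Δ it was 13.6 against set2-Y149F and 20.1 against set2-Y236F (all rows 5.58 and 6.03). Between the point mutants it was 3.26 (all rows 2.38). With 10 it was 1.63 in each mutant against the WT (all rows 1.22, 2.50 and 2.19), 1.09 in set2Δ against set2-Y149F (all rows 0.829) and 0.543 against set2-Y236F (all rows 0.769), so that with 10 the share of called members exceeded that of all rows only in set2Δ against the WT and against set2-Y149F. These settings weigh genes under 1 FPKM more and genes under 10 FPKM less by construction. With only the 3 highest numbers of each arm the median difference in set2Δ was 0.18, in place of -0.03. The other 63 alternatives for counts and medians stayed within 1.5 times the count or within the spread. Of these, dropping members with a found near-copy raised the percent called in set2Δ to 20.0, with 12 higher and 6 lower of 90. Of those 90, 17 are not in RefSeq and were not compared. Of 50 calls of single genes, 9 were kept with 10 and 45 after scaling. All 50 were kept with 0.1 by construction, as a smaller pseudocount can only widen a difference. Neither a pseudocount nor scaling, with log2 shifts of at most 0.0953, can turn the sign of such a call. Genes newly called under these settings are not in this count.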
